A study of Mus musculus with 31 samples.

Results

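Regulatory T cells (Tregs) sorted from mammary tumors were compared with Tregs sorted from spleens of tumor-bearing mice, using the 3 tumor libraries and the 3 spleen libraries of these mice among the 31 libraries of the study. The mice were K14cre;Cdh1F/F;Trp53F/F animals on the FVB/N background, called KEP mice. In them Cre under the keratin 14 promoter deletes E-cadherin (Cdh1) and p53 (Trp53) in epithelial cells, and mammary tumors arise spontaneously. Both groups came from mice whose tumors measured 225 mm2, and each library came from 1 mouse, so the genotype, the deleted alleles and the tumor burden were shared and the tissue differed. The age of the mice is not given in the sources used here. The cells were live CD45+ CD3+ CD4+ CD8- CD25+ cells with no gate on FOXP3, and tumor library 1 was made from fewer sorted cells than the other 5 libraries. Tumor tissue was broken down with enzymes (collagenase A and DNase), and no enzyme digestion is stated for spleens, so tissue and digestion cannot be told apart. Tumor and spleen libraries of the same number carry the same date in their titles, and what the date marks is not stated. The comparison asks how Tregs inside the tumor differ from Tregs of a distant lymphoid organ of the same kind of mouse.

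Tregs are CD4+ T cells that hold back other immune cells, and most depend on the transcription factor FOXP3 and on interleukin 2 received through the high-affinity receptor that contains CD25. Tregs that recirculate through lymphoid organs keep genes of resting T cells, such as the homing receptors for lymph nodes and blood. Tregs that settle in tissues and tumors are known for high levels of CTLA-4, of receptors of the tumor necrosis factor family and of the chemokine receptor CCR8.

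Values below are counts scaled to library size with TMM factors over the 6 libraries (CPM), and are listed in the order of libraries 1, 2 and 3. The libraries held 11149707, 11502183 and 10727207 counts for tumor, against 11465657, 12726090 and 12236525 counts for spleen. The 3 tumor libraries differed far more among themselves than the spleen libraries did: the chi-square statistic of a pair of tumor libraries, divided by its degrees of freedom, was 96.0 to 189.2, against 8.35 to 9.80 for a pair of spleen libraries. A value near 1 would mark a library deposited more than once, and no pair came near it. The biological coefficient of variation was 0.451 within tumor and 0.110 within spleen. The first principal component held 88.4% of the variance and separated tumor from spleen.

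The summed level of 10 pan-T genes, which encode CD3 chains, T cell receptor signaling proteins and CD2 and CD5, stood at 106%, 58.5% and 32.2% of the spleen mean in tumor libraries 1, 2 and 3, against 99.1%, 97.8% and 103% in the spleen libraries. Tumor library 1 was thus level with spleen, and libraries 2 and 3 were below every spleen library. Markers of cells outside the gate were higher in tumor, with all 15 macrophage markers tested, 12 of 13 stromal and endothelial markers tested, and 8 of 9 epithelial markers tested called higher. Of 14 epithelial markers 5 did not pass the filter on low counts. Markers with almost no count in 1 tissue could pass it only through the other. Krt14, for example, had 733 counts over the tumor libraries and 1 over spleen. The direction of such calls was thus largely fixed by the filter. The sums below include markers that were not tested. The macrophage markers summed to 0.130%, 0.760% and 0.225% of all CPM in tumor, against 0.00238% to 0.00464% in spleen. Stromal and endothelial markers summed to 0.747%, 1.64% and 1.69% in tumor, against 0.0170% to 0.0202% in spleen, and the collagen gene Col1a1 alone had 2040.2, 3729 and 4096 CPM in tumor, against 3.16, 3.95 and 3.51 CPM in spleen. Epithelial markers summed to 0.0186%, 0.0213% and 0.259% in tumor, against 0.00156% to 0.00259% in spleen. Dendritic cell markers, with 5 of 6 tested called higher, summed to 0.0980%, 0.346% and 0.0798% in tumor, against 0.00862% to 0.0229% in spleen. B cell markers were the reverse, with 7 of 8 tested called lower, and summed to 0.0282%, 0.0147% and 0.00544% in tumor, against 0.0687% to 0.0937% in spleen. Pdgfra, Kdr and Lum had no count in any spleen library, Pax5 had none in any tumor library, and Cd8a had 78 counts over the tumor libraries against 7 over the spleen libraries. The list of CD8 T and NK cell markers to which Cd8a belongs did not rise, with 0 of 6 tested called higher and 1 lower. It summed to 113, 288 and 35.0 CPM in tumor, against 128, 262 and 136 CPM in spleen, an overlap. With any 1 spleen library left out, 2 or 3 dendritic cell markers were called higher (3 with the title date as a block), and without spleen library 3, 5 epithelial markers. With limma-voom 1 of the 9 epithelial markers was called higher. Of the B cell markers, 3 were called lower without spleen library 1, and 4 without spleen library 3 or tumor library 2. In bulk RNA, fewer cells of a type and less RNA per cell cannot be told apart, and the part of these other cells in the results below was not tested.

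**Figure D1:**
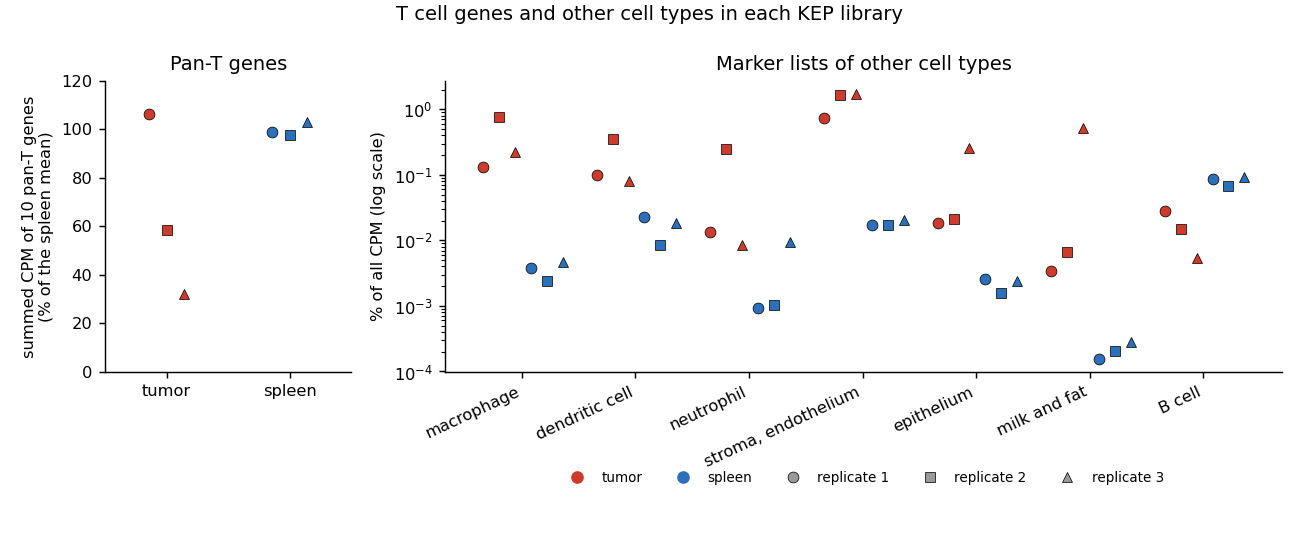
Left, the summed CPM of 10 pan-T genes as a percentage of the spleen mean; right, summed CPM of marker lists as a percentage of all CPM on a log scale. Points are single KEP libraries, red for tumor and blue for spleen, with the shape giving the replicate. Tumor library 1 has a pan-T level of 106%, tumor library 3 of 32.2%, and macrophage, stromal and epithelial markers are higher in all 3 tumor libraries than in any spleen library.

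Of 12927 genes tested with edgeR's quasi-likelihood test, 6048 (46.8%) had a p below 0.05 after Benjamini-Hochberg adjustment and are named as called. In tumor 3473 genes (26.9%) were higher and 2575 (19.9%) were lower. A change of at least 2-fold was called higher for 2788 genes (21.6%) and lower for 1202 (9.3%). Large changes went mostly upward: 1609 genes were called at 8-fold or more higher, against 97 at 8-fold or more lower. For 8332 genes (64.5%) the tumor and spleen libraries did not overlap. Any list below is to be read against these shares, since 46.8% of all genes were called. The number of calls depended on each spleen library: 3793 genes were called without spleen library 1 (1299 lower), 3349 without spleen library 2 (2225 higher, 1124 lower) and 3563 without spleen library 3 (1216 lower). A scaling of each library to its 10 pan-T genes, which sets levels relative to T cell RNA, moved the median log2 fold change of all genes tested to 0.96, against 0.04 with TMM. With it 3613 genes (27.9%) stood higher in tumor and 162 (1.25%) lower, and 95.7% of its calls were higher, against 57.4% of the calls with TMM. Under both scalings 3254 genes were called higher and 162 lower, so nearly all calls of a lower level were lost with pan-T scaling. A lost call did not always mean a lost difference in level. Lef1 kept a log2 fold change of -1.12 (edgeR adjusted p = 0.0927) and Cd79a one of -2.28 (0.0564).

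**Figure D2:**
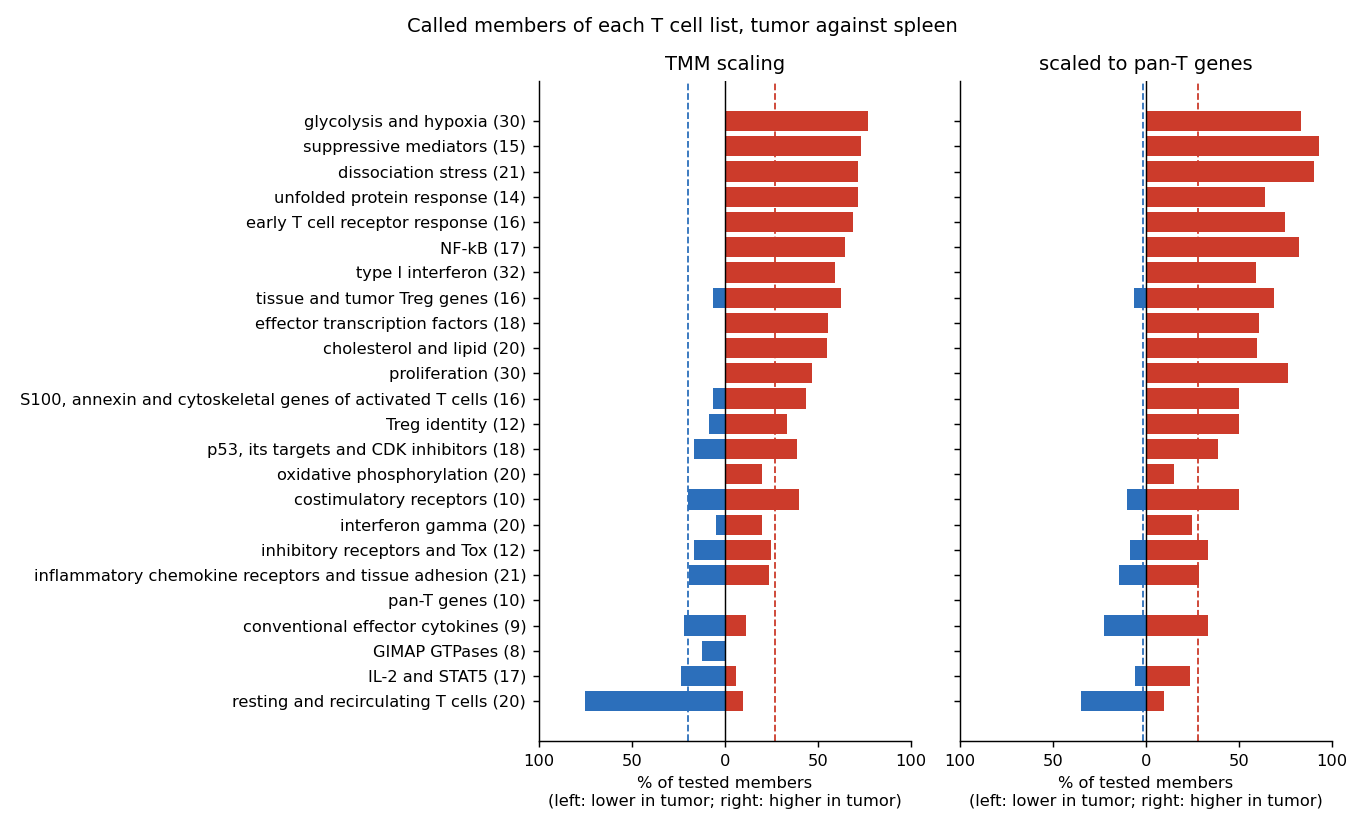
Share of the tested members of each T cell list called higher (red, right) or lower (blue, left) in tumor against spleen, with TMM scaling and with libraries scaled to pan-T genes; the number tested is in parentheses and dashed lines give the share over all genes tested. With pan-T scaling the list of resting and recirculating T cells has 7 members called lower, against 15 with TMM, and most other lists keep their calls of a higher level.

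The genes that define Tregs did not move together. Among the 12 identity genes the test called 4 higher and 1 lower (26.9% and 19.9% over all genes), and the median log2 fold change was 0.30, against 0.04 over all genes tested. Foxp3 (chromosome X, 7579676 to 7595243, plus strand, GRCm38), the lineage factor, had 1644, 829 and 473 CPM in tumor, against 1268, 1112 and 1453 CPM in spleen. One tumor library lay above every spleen library and the other two below, so the groups overlapped (log2 fold change -0.38, SE 0.45, edgeR adjusted p = 0.513). Without tumor library 1 the gene was called lower, at an adjusted p of 0.04. Ctla4 (chromosome 1, 60887000 to 60915832, plus strand), the inhibitory receptor through which Tregs strip CD80 and CD86 from antigen-presenting cells, had 3427, 2465 and 895 CPM in tumor, against 340.1, 322 and 419.9 CPM in spleen. Every tumor library was above every spleen library (log2 fold change 2.65, SE 0.50, edgeR adjusted p = 0.00823). Il2ra, which encodes CD25 and was part of the sort, had 2987, 1062 and 1264 CPM in tumor, against 581, 517 and 702 CPM in spleen, again with no overlap (log2 fold change 1.56, SE 0.43, edgeR adjusted p = 0.028). Lrrc32 encodes GARP, which holds latent TGF-beta on the Treg surface, and had 201, 137 and 63.5 CPM in tumor, against 31.3, 26.9 and 24.8 CPM in spleen (log2 fold change 2.28, SE 0.41, edgeR adjusted p = 0.00728). Ikzf2, encoding Helios, overlapped between the groups with 831, 449 and 349 CPM in tumor, against 493, 439 and 501 CPM in spleen (log2 fold change 0.19, SE 0.33, edgeR adjusted p = 0.67). Ikzf4, encoding Eos, was called higher (log2 fold change 1.13, SE 0.33, edgeR adjusted p = 0.0331). The receptor gene Gpr83 was the member called lower, with 51.5, 29.7 and 12.3 CPM in tumor, against 104, 114 and 87.1 CPM in spleen (log2 fold change -1.71, SE 0.48, edgeR adjusted p = 0.0299). In all 12 genes tumor library 1 was the highest of the 3 tumor libraries, which held for 39.2% of all genes tested. Only 2 of the 12 were called higher with any 1 spleen library left out: Il2ra was then at an adjusted p of 0.0794 to 0.108 and Ikzf4 at 0.0797 to 0.12, while Gpr83 was at 0.071 to 0.0922 with any 1 spleen library or tumor library 2 left out, and at 0.072 with pan-T scaling.

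**Figure D3:**
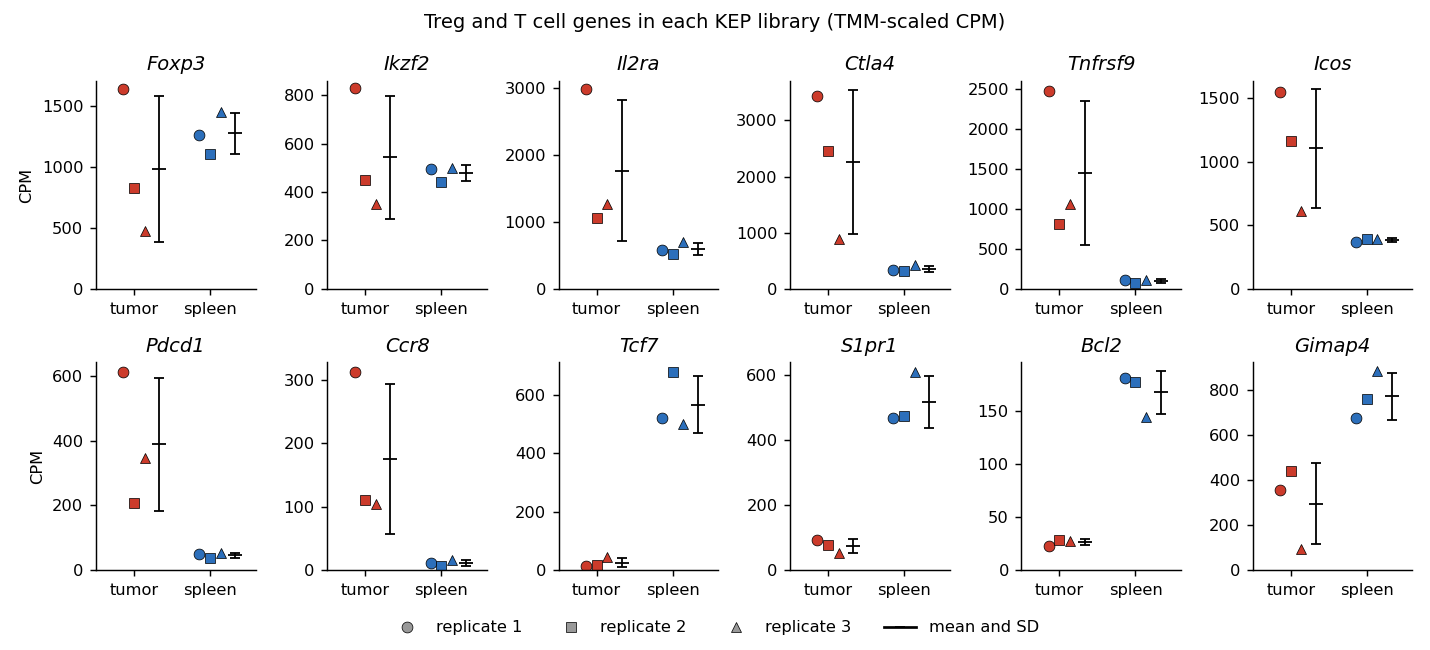
CPM of 12 Treg and T cell genes in the 3 tumor libraries (red) and the 3 spleen libraries (blue) of KEP mice; shapes give the replicate, and the bar beside each group the mean and SD. Tumor library 1 is the highest tumor library for the 8 genes from Foxp3 to Ccr8, and Tcf7, S1pr1 and Bcl2 are lower in every tumor library than in any spleen library.

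Set against the pan-T genes of the same library, the Treg genes were more alike among the tumor libraries. Per 1000 CPM of pan-T genes, Cd4 had 158, 159.8 and 164 CPM in tumor, against 182, 166 and 177 CPM in spleen. Foxp3 had 264, 242 and 250.4 CPM in tumor, against 218, 194 and 240.1 CPM in spleen, so that the lowest tumor library was above the highest spleen library by less than the spread within either group. Relative to T cell RNA, Ikzf2 stood higher in every tumor library, with 133, 131 and 185 CPM in tumor, against 84.8, 76.6 and 82.8 CPM in spleen. The difference was far larger for Ctla4, with 550.0, 718 and 474 CPM in tumor, against 58.5, 56.2 and 69.4 CPM in spleen. These ratios were chosen after the values were seen, and an exact permutation test of 3 against 3 libraries cannot go below p = 0.1. With libraries scaled to pan-T genes, the log2 fold change of Foxp3 was 0.21 (edgeR adjusted p = 0.637), so its sign turned with the scaling while it was called under neither.

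**Figure D4:**
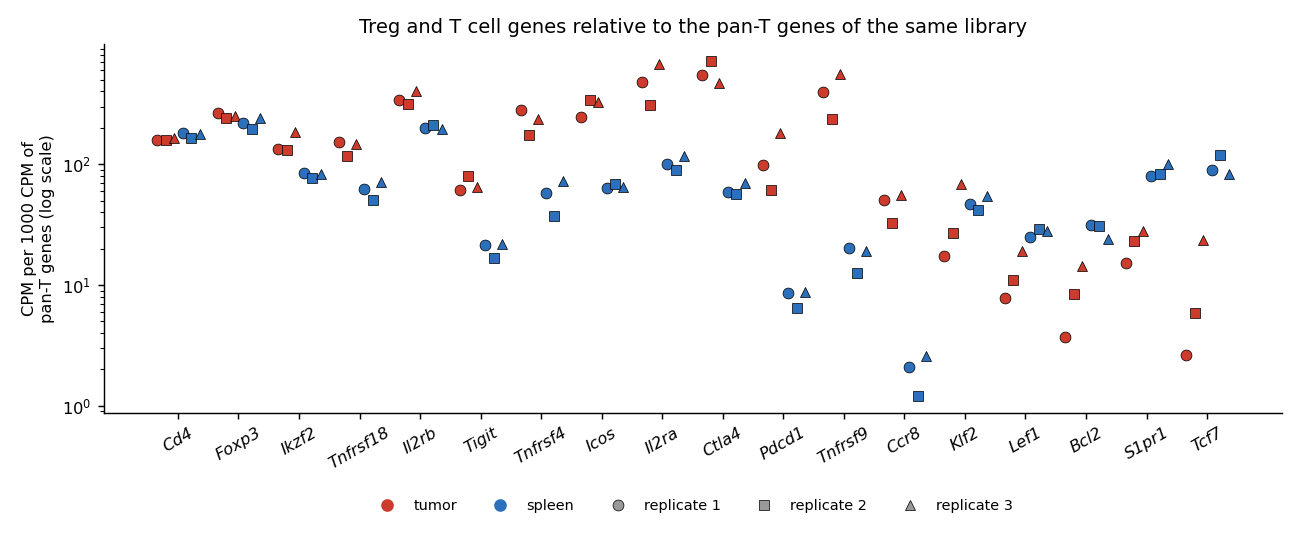
CPM of 18 genes per 1000 CPM of the 10 pan-T genes of the same library, on a log scale, for tumor (red) and spleen (blue) libraries of KEP mice; shapes give the replicate. Cd4 and Foxp3 lie at about the same height in both tissues, Ctla4, Pdcd1, Tnfrsf9 and Ccr8 lie higher in every tumor library, and Bcl2, S1pr1 and Tcf7 lower.

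Among costimulatory and inhibitory receptors single members differed widely, while the shares of inhibitory receptors called were near those of all genes. Tnfrsf9 encodes 4-1BB, a receptor of antigen-stimulated T cells, and had 2481, 808 and 1059 CPM in tumor, against 117, 71.7 and 116 CPM in spleen. All 3 tumor libraries were several times above the highest spleen library (log2 fold change 3.83, SE 0.52, edgeR adjusted p = 0.00336). Icos, the costimulatory receptor on which effector Tregs depend, had 1543, 1159.9 and 613 CPM in tumor, against 369, 392 and 392 CPM in spleen (log2 fold change 1.53, SE 0.34, edgeR adjusted p = 0.0145). Pdcd1, encoding PD-1, had 612, 208 and 345 CPM in tumor, against 49.8, 37.2 and 52.6 CPM in spleen, with no overlap and the highest value in tumor library 1 (log2 fold change 3.06, SE 0.43, edgeR adjusted p = 0.0035). Havcr2, encoding TIM-3, had 85.3, 73.4 and 32.8 CPM in tumor, against 11.1, 11.6 and 12.5 CPM in spleen (log2 fold change 2.44, SE 0.36, edgeR adjusted p = 0.00411). In these 4 receptors no tumor library overlapped spleen. By contrast, Cd40lg, the helper ligand of conventional CD4+ T cells, fell in tumor, with 18.3, 11.9 and 6.901 CPM in tumor, against 50.003, 62.4 and 52.97 CPM in spleen (log2 fold change -2.16, SE 0.35, edgeR adjusted p = 0.00536). Cd160, a receptor of cytotoxic and innate-like lymphocytes, was nearly missing from tumor, with 0.2004, 0.872 and 0.197 CPM in tumor, against 14.8, 32.1 and 10.4 CPM in spleen (log2 fold change -5.43, SE 0.77, edgeR adjusted p = 0.00362). Cd226, an activating receptor that shares ligands with TIGIT, had 33.8, 26.4 and 20.5 CPM in tumor, against 76.001, 115 and 83.7 CPM in spleen (log2 fold change -1.77, SE 0.25, edgeR adjusted p = 0.0035), and it was no longer called with pan-T scaling (adjusted p = 0.142). In all 3 of these every tumor library was below every spleen library. Of 10 costimulatory receptors 4 were called higher and 2 lower (median log2 fold change 0.40), and of 12 genes of inhibitory receptors and exhaustion 3 were called higher and 2 lower, 1 with the title date as a block (median -0.01 with TMM and 0.80 with pan-T scaling). Some receptors often named in tumor Tregs were not called by edgeR. Tnfrsf4, encoding OX40, had 1761, 596 and 448 CPM in tumor, against 338, 215 and 441 CPM in spleen (log2 fold change 1.5, SE 0.58, edgeR adjusted p = 0.076). Tnfrsf18, encoding GITR, had an edgeR adjusted p of 0.335, and Tigit one of 0.0615. With pan-T scaling all 3 were called higher (adjusted p = 0.00335, 0.0297 and 0.00528, by edgeR). DESeq2 called Tnfrsf4 and Tigit higher (adjusted p = 0.0116 and 0.0113). Without tumor library 3, edgeR called both, at adjusted p of 0.0311 and 0.00397. Lag3 was called higher in the main comparison only narrowly (edgeR adjusted p = 0.0486, 0.0584 with the title date as a block, and 0.0843 to 0.148 with any 1 spleen library or tumor library 1 or 2 left out). With any 1 spleen library left out a single costimulatory receptor was called higher, and Icos then had an adjusted p of 0.0629 to 0.0655.

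Genes of suppressive mechanisms were mostly higher in tumor: 11 of 15 members tested of 16 were called higher and none lower, with a median log2 fold change of 1.5. Areg encodes amphiregulin, the growth factor by which Tregs act on epithelium, and had 386, 215 and 142 CPM in tumor, against 0.997, 0.671 and 2.34 CPM in spleen. It was almost absent from spleen and high in every tumor library (log2 fold change 7.52, SE 0.65, edgeR adjusted p = 0.00132). Itgav and Itgb8 encode the integrin chains that release active TGF-beta, and both rose. Itgav had 890.3, 479 and 814 CPM in tumor, against 67.03, 61.995 and 70.5 CPM in spleen (log2 fold change 3.45, SE 0.28, edgeR adjusted p = 0.00117), and Itgb8 had 189.5, 106 and 102 CPM in tumor, against 19.2, 15.1 and 18.1 CPM in spleen (log2 fold change 2.92, SE 0.29, edgeR adjusted p = 0.00183). The groups were apart in both integrin genes. Il10, the suppressive cytokine, had 55.1, 57.7 and 10.8 CPM in tumor, against 7.81, 2.39 and 4.44 CPM in spleen (log2 fold change 3.08, SE 0.74, edgeR adjusted p = 0.0179). Gzmb, encoding the cytotoxic protease granzyme B, had 538, 495 and 131 CPM in tumor, against 55.9, 102 and 68.1 CPM in spleen (log2 fold change 2.37, SE 0.56, edgeR adjusted p = 0.017). In both of these genes tumor library 3 was the lowest tumor library and still above spleen. Cd274, encoding PD-L1, had 429.6, 252 and 130.3 CPM in tumor, against 83.8, 84.5 and 93.2 CPM in spleen (log2 fold change 1.63, SE 0.42, edgeR adjusted p = 0.0212), and Fgl2, a secreted fibrinogen-like suppressor, had 428, 398 and 223 CPM in tumor, against 111, 109 and 151 CPM in spleen (log2 fold change 1.5, SE 0.29, edgeR adjusted p = 0.00881). Both were above spleen in every tumor library. Lgals3, encoding the lectin galectin-3, which macrophages also express strongly, was highest in tumor library 2 with 114, 264 and 196 CPM in tumor, against 49.4, 42.7 and 54.6 CPM in spleen (log2 fold change 1.97, SE 0.31, edgeR adjusted p = 0.00503). Prf1, encoding perforin, was not called (log2 fold change -1.39, SE 0.64, edgeR adjusted p = 0.118), but was called lower with the title date as a block (edgeR adjusted p = 0.0351) and without tumor library 2 (0.0461). Tgfb1 and Ebi3, a subunit of interleukin 35, were not called, with edgeR adjusted p of 0.139 and 0.156, and both were called with pan-T scaling (0.0201 and 0.0292). Between 5 and 6 members were called higher with any 1 spleen library left out, when Cd274 was at 0.0737 to 0.0826, Fgl2 at 0.05 without spleen library 2, Gzmb at 0.0703 to 0.0707 without spleen library 1 or 3, and Il10 at 0.0512 to 0.0723 without spleen library 2 or 3 or tumor library 2.

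Transcription factors of effector T cells rose in part. Of 18 members, 10 were called higher and none lower, with a median log2 fold change of 1.38. Bhlhe40, a factor of activated T cells, had 2395, 1107 and 1399 CPM in tumor, against 54.8, 61.1 and 54.1 CPM in spleen, which placed the lowest tumor library at more than 10 times the highest spleen library (log2 fold change 4.85, SE 0.36, edgeR adjusted p = 0.001). Nfil3 had 283, 214 and 172 CPM in tumor, against 20.8, 13.8 and 20.3 CPM in spleen (log2 fold change 3.60, SE 0.27, edgeR adjusted p = 0.000993). Rbpj, the DNA-binding partner of Notch, had 376, 271 and 334 CPM in tumor, against 64.04, 66.8 and 72.9 CPM in spleen, and its tumor libraries were close to each other (log2 fold change 2.27, SE 0.17, edgeR adjusted p = 0.000983). Ahr, the receptor for aryl hydrocarbons, had 122, 72.8 and 106 CPM in tumor, against 24.8, 19.6 and 25.2 CPM in spleen (log2 fold change 2.11, SE 0.23, edgeR adjusted p = 0.00204). Hif1a, the oxygen-regulated factor, had 895, 666 and 524 CPM in tumor, against 211, 212 and 245 CPM in spleen (log2 fold change 1.64, SE 0.24, edgeR adjusted p = 0.00365). Each of these 5 factors was above spleen in every tumor library. The factors best known for driving effector Tregs did not pass the test. Batf had 188, 46.02 and 37.4 CPM in tumor, against 100.4, 74.2 and 96.8 CPM in spleen, Irf4 348, 107 and 112 CPM in tumor, against 116, 96.5 and 122 CPM in spleen, and Prdm1, encoding BLIMP-1, 157, 133 and 65.6 CPM in tumor, against 92.7, 84.5 and 87.7 CPM in spleen, with edgeR adjusted p of 0.998, 0.232 and 0.295. In Batf only tumor library 1 was above spleen, and without it the gene was called lower (edgeR adjusted p = 0.00713), while Prdm1 was called higher without tumor library 3 (adjusted p = 0.00489). Irf4 was called higher with pan-T scaling (adjusted p = 0.0307, by edgeR). Maf and Gata3 were not called either, with adjusted p of 0.837 and 0.496. With CPM scaled over the 15 KEP libraries, the list summed to 4230 to 8358 CPM in tumor and 2039 to 2121 in spleen. It summed to 1550 to 1900 CPM in lymph node, 4268 to 4558 in lung and 2649 to 2901 in blood, so lung overlapped tumor. In 7 of the 18 (38.9%) all tumor libraries were above all 12 other KEP libraries, against 19.9% of all genes tested.

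Genes reported in tissue and tumor Tregs rose in 10 of 16 members, and 1 fell, with a median log2 fold change of 1.73. Il1r2, the decoy receptor for interleukin 1, had 198, 38.6 and 56.7 CPM in tumor, against 5.897, 4.55 and 5.92 CPM in spleen, with tumor library 1 far above the other two (log2 fold change 4.16, SE 0.69, edgeR adjusted p = 0.00565). Samsn1, an adaptor protein of lymphocytes, had 719.9, 439 and 349 CPM in tumor, against 116, 87.4 and 122 CPM in spleen (log2 fold change 2.21, SE 0.32, edgeR adjusted p = 0.00375). Dgat2, an enzyme of triglyceride synthesis, had 238, 41.7 and 204 CPM in tumor, against 2.33, 0.9698 and 2.88 CPM in spleen (log2 fold change 6.29, SE 0.84, edgeR adjusted p = 0.00322). In Dgat2 tumor library 2 was the lowest, and still above every spleen library. Il1rl1 encodes ST2, the receptor for interleukin 33, and had 2475, 938 and 1121 CPM in tumor, against 489.6, 325 and 515 CPM in spleen (log2 fold change 1.77, SE 0.43, edgeR adjusted p = 0.0184). Penk, the precursor of enkephalins, had 303, 39.4 and 149 CPM in tumor, against 29.2, 9.997 and 32.3 CPM in spleen (log2 fold change 2.78, SE 0.81, edgeR adjusted p = 0.0321). In Penk tumor library 2 lay close to the upper spleen libraries. Il1rn, the interleukin 1 receptor antagonist, also a product of myeloid cells, had 70.2, 115 and 55.4 CPM in tumor, against 0.914, 0.448 and 1.09 CPM in spleen and was highest in tumor library 2, as the macrophage markers were (log2 fold change 6.61, SE 0.46, edgeR adjusted p = 0.000983). Il9r, the receptor for interleukin 9, was the member called lower, with 43.4, 10.6 and 20.1 CPM in tumor, against 122, 100.4 and 142 CPM in spleen (log2 fold change -2.30, SE 0.50, edgeR adjusted p = 0.0131). With any 1 spleen library left out 5 or 6 members were called higher, Il1rl1 was at an adjusted p of 0.0617 to 0.0798 and Penk at 0.0809 to 0.097. Penk was at 0.058 without tumor library 1, and Il9r at 0.0501 without spleen library 3.

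Of 21 chemokine receptors and adhesion molecules 5 were called higher and 4 lower, close to the 26.9% and 19.9% of all genes, with a median log2 fold change of -0.22 with TMM and 0.51 with pan-T scaling. Ccr8, the receptor most used to mark tumor Tregs, had 312, 111 and 104 CPM in tumor, against 12.3, 6.94 and 15.7 CPM in spleen. The lowest tumor library was above the highest spleen library by more than 6 times (log2 fold change 3.92, SE 0.57, edgeR adjusted p = 0.00399). Cxcr4, which answers CXCL12, had 1359, 761 and 1344 CPM in tumor, against 203, 103 and 154 CPM in spleen (log2 fold change 2.91, SE 0.36, edgeR adjusted p = 0.00279). The groups were apart in both Ccr8 and Cxcr4. Ccr1 and Cx3cr1, which are receptors of myeloid cells as well, were both highest in tumor library 2, with 48.5, 118 and 44.96 CPM in tumor, against 3.32, 3.43 and 4.75 CPM in spleen for Ccr1 and 42.996, 173 and 60.6 CPM in tumor, against 0.581, 0.298 and 0.467 CPM in spleen for Cx3cr1. Members called lower included Ccr9 and Ccr10. Ccr9, a receptor for the small intestine, had 1.403, 1.83 and 1.48 CPM in tumor, against 9.72, 16.9 and 16.7 CPM in spleen (log2 fold change -3.19, SE 0.34, edgeR adjusted p = 0.00194), and Ccr10, a receptor for skin, had 1.904, 0.784 and 0.0986 CPM in tumor, against 17.3, 32.3 and 19.2 CPM in spleen (log2 fold change -4.62, SE 0.81, edgeR adjusted p = 0.00652). The gut-homing integrin gene Itgb7 was not called (edgeR adjusted p = 0.135). Itgae, encoding CD103, and Cxcr3, the receptor of type 1 T cells, were not called, with edgeR adjusted p of 0.154 and 0.167. With pan-T scaling Itgae was called higher (0.0162). Both were called without tumor library 3, at 0.0255 and 0.0415. The number called lower was 2 without spleen library 3 or tumor library 2, and 8 without tumor library 1.

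The genes of resting and recirculating T cells fell. Of 20 members 15 were called lower and 2 higher, with a median log2 fold change of -1.69. Tcf7, encoding TCF-1, the factor of naive and memory T cells, had 16.3, 20.05 and 44.3 CPM in tumor, against 520.2, 677 and 501 CPM in spleen. Every tumor library was below the lowest spleen library by more than 10 times (log2 fold change -4.40, SE 0.45, edgeR adjusted p = 0.0019). S1pr1, the receptor by which T cells leave tissue for lymph and blood, had 94.6, 79.1 and 53.2 CPM in tumor, against 468, 474 and 609 CPM in spleen (log2 fold change -2.77, SE 0.26, edgeR adjusted p = 0.00162). Bcl2, the survival protein of resting lymphocytes, had 23.3, 28.7 and 27.3 CPM in tumor, against 181, 177 and 145 CPM in spleen, with little spread in either group (log2 fold change -2.67, SE 0.15, edgeR adjusted p = 0.000931). Lef1, a relative of TCF-1, had 48.2, 37.7 and 35.9 CPM in tumor, against 146, 166 and 168 CPM in spleen (log2 fold change -1.98, SE 0.15, edgeR adjusted p = 0.00102). Il6ra, the receptor for interleukin 6, had 43.2, 37.7 and 23.1 CPM in tumor, against 231, 222 and 248 CPM in spleen (log2 fold change -2.75, SE 0.25, edgeR adjusted p = 0.0015), and Klf2, a factor that maintains S1pr1, had 108, 93.01 and 129 CPM in tumor, against 272, 239 and 329.5 CPM in spleen (log2 fold change -1.34, SE 0.19, edgeR adjusted p = 0.00356). In all 6 genes the highest tumor library was below the lowest spleen library. Ccr7, the receptor for lymph node chemokines, went the other way, with 1180.2, 361 and 329 CPM in tumor, against 165, 179 and 147 CPM in spleen (log2 fold change 1.93, SE 0.53, edgeR adjusted p = 0.0275). With pan-T scaling 7 of the 20 were called lower, against 162 (1.25%) of all genes. Relative to 1000 CPM of pan-T genes, Tcf7 had 2.62, 5.84 and 23.5 CPM in tumor, against 89.5, 118 and 82.9 CPM in spleen. S1pr1 had 15.2, 23.03 and 28.2 CPM in tumor, against 80.4, 82.6 and 101 CPM in spleen, while Klf2, with 17.4, 27.1 and 68.6 CPM in tumor, against 46.7, 41.7 and 54.5 CPM in spleen, overlapped. In the fit with pan-T scaling Lef1 was not called (edgeR adjusted p = 0.0927), nor was Klf2 (0.618). Ccr7 was not called with any 1 spleen library left out (edgeR adjusted p = 0.0884 to 0.099). Among the 20 members, 12 (60%) had all 3 tumor libraries below all 12 libraries of KEP spleen, lymph node, lung and blood, against 12.2% of all genes tested.

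The pan-T genes themselves were not called in any of 10 members, with a median log2 fold change of -0.79. Cd3e, a chain of the T cell receptor complex, had 589, 339.9 and 168 CPM in tumor, against 768, 788 and 829 CPM in spleen, each tumor library below each spleen library (log2 fold change -1.12, SE 0.44, edgeR adjusted p = 0.0764). It was called lower without tumor library 1 or 3 (edgeR adjusted p = 0.0115 to 0.04). At an unadjusted p under 0.05 there were 2 of the 10, against 7213 of all genes. DESeq2 called 2 of the 10 lower, and without tumor library 1 edgeR called 8 lower. Gimap genes encode GTPases of resting lymphocytes, and 1 of 8, Gimap1, was called lower (log2 fold change -1.66, SE 0.53, edgeR adjusted p = 0.0426), a gene whose reads cannot be told from its overlapping antisense partner. It was not called with any 1 spleen library or tumor library 2 left out (edgeR adjusted p = 0.1 to 0.111), nor with pan-T scaling (0.0642). The 8 genes all had every tumor library below every spleen library, which held for 31% of all genes tested. All 8 Gimap genes were called lower by DESeq2, or by edgeR without tumor library 3. Gimap4 had 356, 441 and 93.1 CPM in tumor, against 677, 759.7 and 884 CPM in spleen, so that all tumor libraries were below spleen but library 3 was far below the other two. Genes of the interleukin 2 and STAT5 pathway showed 1 of 17 called higher, Il2ra, and 4 called lower, with a median of -0.08 with TMM and 0.50 with pan-T scaling. Socs3, a feedback inhibitor of cytokine signaling, had 205, 240.1 and 190.5 CPM in tumor, against 464, 432 and 348 CPM in spleen (log2 fold change -0.97, SE 0.18, edgeR adjusted p = 0.00719), and was not called with pan-T scaling (adjusted p = 0.917). Cish, the STAT5-induced inhibitor, was not called (edgeR adjusted p = 0.903). The number called lower was 2 without spleen library 1 or 3, and 7 without tumor library 1.

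Genes induced within an hour of T cell receptor stimulation were among the largest changes. Of 16 members 11 were called higher and none lower, with a median log2 fold change of 2.89. Nr4a1, encoding the nuclear receptor NUR77, had 2603, 1319.9 and 3106 CPM in tumor, against 50.8, 53.4 and 45.7 CPM in spleen. Its spleen libraries lay within a narrow range and the tumor libraries far above (log2 fold change 5.55, SE 0.40, edgeR adjusted p = 0.000983). Nr4a3, a relative of it, had 1637, 722 and 1290.0 CPM in tumor, against 14.8, 15.97 and 16.3 CPM in spleen (log2 fold change 6.28, SE 0.39, edgeR adjusted p = 0.000979), and Egr1, the early growth response factor, had 303, 559 and 742 CPM in tumor, against 53.9, 48.1 and 45.5 CPM in spleen (log2 fold change 3.44, SE 0.36, edgeR adjusted p = 0.00193). None of the 3 overlapped. Egr2, Egr3 and Myc were not called, with edgeR adjusted p of 0.291, 0.547 and 0.361, although Egr2 was without tumor library 1 (0.0257). Genes of the NF-kB pathway rose in 11 of 17 members, with none lower and a median of 1.70. Tnfaip3, encoding the feedback inhibitor A20, had 3987, 2460.0 and 1507 CPM in tumor, against 158, 149 and 202 CPM in spleen (log2 fold change 3.97, SE 0.42, edgeR adjusted p = 0.00198). Nfkbia, encoding the inhibitor I-kappa-B-alpha, had 2708, 1118 and 996 CPM in tumor, against 234, 219 and 286 CPM in spleen (log2 fold change 2.71, SE 0.44, edgeR adjusted p = 0.00539), and Rel, the subunit that Tregs need, had 334, 119.6 and 228 CPM in tumor, against 22.1, 25.5 and 20.96 CPM in spleen (log2 fold change 3.31, SE 0.39, edgeR adjusted p = 0.00246). Tumor library 1 was the highest in each. Rela was not called (edgeR adjusted p = 0.984). In 15 of the 17 tumor library 1 was the highest tumor library, and 6 to 8 were called higher with any 1 spleen library left out. A list of genes that tissue dissociation itself can induce, which holds AP-1 factors and heat shock genes, rose in 15 of 21 members, with none lower and a median of 1.70. Of its 8 heat shock genes 2 were called, Hspa1a and Hspa1b, and the 6 members not called were the other heat shock genes. In it Fos, a subunit of AP-1, had 544, 805 and 1443 CPM in tumor, against 12.6, 17.3 and 5.61 CPM in spleen (log2 fold change 6.29, SE 0.63, edgeR adjusted p = 0.00185), and Fosb, another, had 596, 864 and 2422 CPM in tumor, against 2.91, 2.39 and 2.49 CPM in spleen (log2 fold change 8.96, SE 0.74, edgeR adjusted p = 0.00124).

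These early-response lists were also high in lung, the other enzyme-digested tissue. On a scale of CPM over the 15 KEP libraries, the early T cell receptor list summed to 7029.9 to 11551 CPM in tumor, 1091 to 1136 in lymph node, 9268 to 10260.1 in lung, 849.8 to 906 in blood and 977 to 1034 in spleen. Tumor and lung libraries overlapped, and both stood far above the other tissues. The dissociation list summed to 12307 to 16715 CPM in tumor, 3841 to 5449 in lymph node, 15248 to 15892 in lung, 3095 to 4745 in blood and 3671 to 5672 in spleen. The NF-kB list showed the same split, with 6441 to 15598 CPM in tumor, 2555 to 2680.1 in lymph node, 9966 to 10396 in lung, 2221 to 2346 in blood and 2595 to 2852 in spleen. Whether digestion moved these lists was not tested, and no tumor library was made without it. On that scale Nr4a1 had 1329.7 to 3120.3 CPM in tumor, against 1634 to 1868 in lung, and Areg 142 to 390.2 in tumor, against 186 to 266 in lung. Ctla4 had 899 to 3462 CPM in tumor, against 2516 to 2951 in lung. Icos had 616 to 1559 CPM in tumor, against 1593 to 2183 in lung, so lung was within the range of tumor for Ctla4 and above it for Icos. In other genes every lung library was below every tumor library. Tnfrsf9 had 814 to 2507 CPM in tumor, against 206 to 361 in lung. Pdcd1 had 209 to 618 CPM in tumor, against 56.5 to 91.1 in lung, and Ccr8 104 to 315 in tumor, against 19.3 to 31.2 in lung. All tumor libraries were above all 12 other KEP libraries in 1 of the 16 early T cell receptor genes (6.25%). The same held for 1 of the 12 Treg identity genes (8.33%) and 3 of the 15 suppressive genes tested (20%), against 19.9% of all genes tested.

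**Figure D5:**
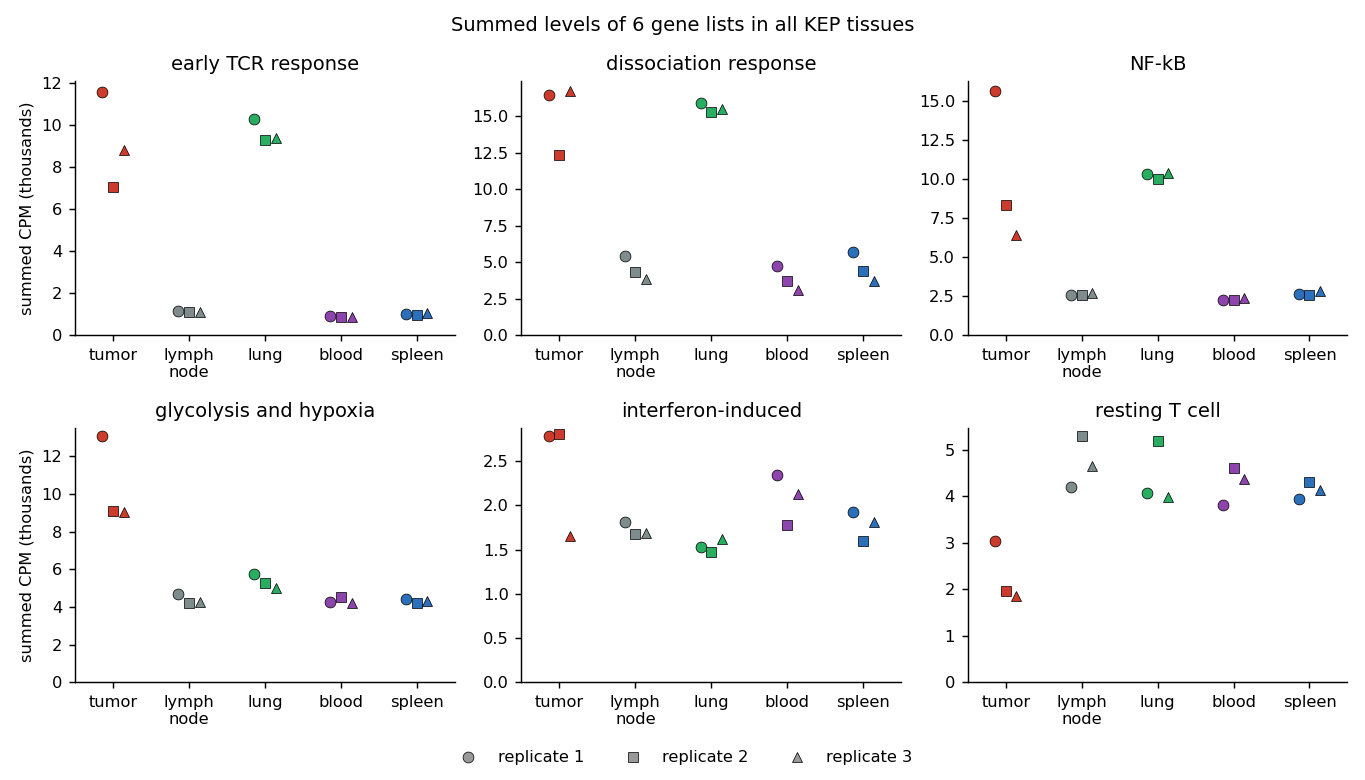
Summed CPM (in units of 1000, scaled over the 15 KEP libraries) of 6 gene lists in Tregs of KEP tumor, lymph node, lung, blood and spleen; points are libraries and shapes give the replicate. The early T cell receptor, dissociation and NF-kB lists are high in both tumor and lung, the glycolysis and hypoxia list is highest in tumor, and the resting list is lowest in tumor.

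Among the T cell lists, glycolysis and the response to low oxygen had the largest share of members called higher: 23 of 30 members were called higher and none lower, with a median log2 fold change of 1.69. Under low oxygen, HIF-1 binds promoters at a short core sequence, ACGTG, and turns on glucose uptake and glycolysis. Promoters from RefSeq (GRCm38.p6, 250 bases before to 50 after each gene's start) were searched for that core on both strands. Among the called members 21 of 23 matched, and 16 of the 21 held it, against 21.8% of 27025 genes with a promoter in the table. The list was drawn up from genes of glycolysis and this response, and members not called were not counted apart. The share therefore cannot bear on the difference between tumor and spleen. The 250 bases before the start are shown for Bnip3 (chr7:138909507-138909756, minus strand) and Pgam1 (chr19:41911621-41911870, plus strand), a target of hypoxia and a glycolytic enzyme that rose with little spread. Capitals mark the core, which in Bnip3 lies within CACGTG and so stands on both strands.

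Bnip3: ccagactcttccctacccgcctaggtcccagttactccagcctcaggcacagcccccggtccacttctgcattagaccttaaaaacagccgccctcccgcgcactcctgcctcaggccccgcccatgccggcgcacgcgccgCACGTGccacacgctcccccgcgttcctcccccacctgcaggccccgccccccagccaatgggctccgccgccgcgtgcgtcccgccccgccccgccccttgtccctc

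Pgam1: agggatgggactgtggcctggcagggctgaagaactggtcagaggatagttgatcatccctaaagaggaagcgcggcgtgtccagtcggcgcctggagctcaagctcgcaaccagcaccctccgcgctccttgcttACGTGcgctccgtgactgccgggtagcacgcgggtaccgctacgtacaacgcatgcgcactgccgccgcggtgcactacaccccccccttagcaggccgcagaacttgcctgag

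A match is a description of the sequence and was not tested for binding. Bnip3, a protein of mitochondrial turnover, had 54.2, 68.3 and 45.6 CPM in tumor, against 6.48, 5.52 and 6.54 CPM in spleen (log2 fold change 3.18, SE 0.20, edgeR adjusted p = 0.000979). Pgam1, phosphoglycerate mutase, had 318, 364 and 298 CPM in tumor, against 80.4, 77.8 and 79.6 CPM in spleen, in both groups with little spread (log2 fold change 2.04, SE 0.13, edgeR adjusted p = 0.000979). Hk2, the inducible hexokinase, had 139, 66.2 and 96.3 CPM in tumor, against 3.82, 2.61 and 2.103 CPM in spleen (log2 fold change 5.14, SE 0.39, edgeR adjusted p = 0.00101), whereas the constitutive Hk1 had 271, 224 and 237 CPM in tumor, against 256, 261 and 248 CPM in spleen and was not called (log2 fold change -0.06, SE 0.13, edgeR adjusted p = 0.722). Hk2 and Hk1 thus differed, with no overlap in the inducible gene and overlap in the constitutive one. Slc2a1, encoding the glucose transporter GLUT1, had 341, 183 and 219 CPM in tumor, against 50.2, 56.3 and 55.2 CPM in spleen (log2 fold change 2.20, SE 0.25, edgeR adjusted p = 0.00235). Tpi1, a glycolytic isomerase, had 726, 543 and 414 CPM in tumor, against 75.9, 68.9 and 77.04 CPM in spleen (log2 fold change 2.92, SE 0.24, edgeR adjusted p = 0.00121), and Slc16a3, which exports lactate, had 347, 182 and 83.4 CPM in tumor, against 10.4, 11.7 and 12.9 CPM in spleen (log2 fold change 4.12, SE 0.55, edgeR adjusted p = 0.0032). Vegfa, encoding the endothelial growth factor, had 86.995, 183 and 232 CPM in tumor, against 0, 0 and 0.156 CPM in spleen. It had 5315 counts over the tumor libraries and 2 over the spleen libraries, a ratio of 3204 with an exact 95% counting interval of 886 to 26460.5. Such intervals, here and below, cover counting error only. With pan-T scaling 25 of the 30 were called higher. The list summed to 9033 to 13046 CPM in tumor, 4208 to 4678 in lymph node, 5025 to 5744 in lung, 4186 to 4509.5 in blood and 4215 to 4395 in spleen. Of its members, 15 of 30 (50%) had all tumor libraries above all 12 other KEP libraries, against 19.9% of all genes tested. On that scale Bnip3 had 45.9 to 68.8 CPM in tumor, against 6.13 to 7.83 in lung, and Slc2a1 184 to 345 in tumor, against 84.8 to 100.0 in lung. On the scale of the 6 libraries the list summed to 12913, 8998 and 8992 CPM in tumor. Tumor library 1 was the highest tumor library in 22 of the 30 members, against 39.2% of all genes tested. The markers of stromal, epithelial and myeloid cells given above were also higher in tumor than in spleen. Among the tumor libraries, the stromal, epithelial and macrophage sums were lowest in library 1, and the dendritic cell sum in library 3. The part of these cells in the list was not tested.

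Genes induced by type I interferon rose in 19 of 32 members, with none lower and a median log2 fold change of 0.87. The factor ISGF3 binds promoters of such genes at paired GAAA repeats, searched here on both strands as GAAA, any 2 bases and GAAA again. Of the 19 members called higher 14 matched the promoter table, and 7 of the 14 held the motif, against 3.99% of genes in the table. This list too was drawn up from genes of the response, and members not called were not counted apart. Its share cannot bear on the difference between tissues either. The 250 bases before the start of Ifit3 (chr19:34583279-34583528, plus strand) and Ifit1 (chr19:34640639-34640888, plus strand), the 2 members with the smallest p, hold it on the opposite strand, so that the capitals read TTTC, 2 other bases and TTTC.

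Ifit3: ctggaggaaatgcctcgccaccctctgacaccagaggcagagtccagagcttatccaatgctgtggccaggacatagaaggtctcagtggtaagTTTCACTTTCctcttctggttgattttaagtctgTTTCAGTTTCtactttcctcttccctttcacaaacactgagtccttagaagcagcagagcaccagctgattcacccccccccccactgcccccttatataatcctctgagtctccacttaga

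Ifit1: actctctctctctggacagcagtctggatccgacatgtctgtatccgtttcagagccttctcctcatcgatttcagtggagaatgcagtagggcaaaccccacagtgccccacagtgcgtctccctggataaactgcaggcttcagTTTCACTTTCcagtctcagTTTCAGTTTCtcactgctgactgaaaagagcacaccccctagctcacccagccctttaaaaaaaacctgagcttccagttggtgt

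The same windows were searched for other motifs, with the same limit. The NF-kB motif (GGGA, any 4 bases and CC) was in 5 of 9 matched NF-kB genes called higher, against 22.9% of genes. It was not particular to that list, being in 8 of 14 matched dissociation genes and 5 of 14 matched interferon genes called higher. The AP-1 motif TGANTCA was in 0 of 14 matched dissociation genes called higher, against 8.97% of genes. Ifit3 and Ifit1 encode proteins that bind viral RNA or its partners. Ifit3 had 16.9, 26.8 and 12.9 CPM in tumor, against 0.997, 0.9698 and 0.935 CPM in spleen (log2 fold change 4.27, SE 0.37, edgeR adjusted p = 0.0013), and Ifit1 had 34.8, 44.6 and 29.4 CPM in tumor, against 6.15, 4.92 and 4.05 CPM in spleen (log2 fold change 2.85, SE 0.25, edgeR adjusted p = 0.00136). All tumor libraries were above all spleen libraries in both. Isg15, the ubiquitin-like modifier, had 87.3, 68.1 and 50.9 CPM in tumor, against 16.03, 12.98 and 13.3 CPM in spleen (log2 fold change 2.28, SE 0.23, edgeR adjusted p = 0.00185). Bst2, encoding tetherin, had 99.4, 109.9 and 97.01 CPM in tumor, against 37.9, 26.9 and 34.9 CPM in spleen, with close values in each group (log2 fold change 1.62, SE 0.16, edgeR adjusted p = 0.00171). Oasl2, of the oligoadenylate synthetase family, had 21.6, 56.9 and 62.9 CPM in tumor, against 1.99, 1.12 and 1.79 CPM in spleen and was lowest in tumor library 1 (log2 fold change 4.85, SE 0.51, edgeR adjusted p = 0.00195). The groups were apart in all 5 genes. The transcription factor Stat2 was not called, with an edgeR adjusted p of 0.539, though it was called higher without tumor library 3 (0.0199). In 24 of the 32 members tumor library 3 was the lowest tumor library, which held for 4686 of the 12927 genes tested. Of the 32, 16 (50%) had all tumor libraries above all 12 other KEP libraries, against 19.9% of all genes tested. The summed level of the list nonetheless overlapped lymph node, blood and spleen, at 1651 to 2808 CPM in tumor, 1679 to 1807 in lymph node, 1478 to 1624 in lung, 1783 to 2349 in blood and 1603 to 1928 in spleen on the scale of 15 libraries, with tumor library 3 the lowest of the tumor libraries. Ifit3, by contrast, had 12.97 to 26.96 CPM in tumor, 0.985 to 2.798 in lymph node, 0.566 to 1.02 in lung, 0.589 to 0.712 in blood and 0.9397 to 1.002 in spleen. Genes induced by interferon gamma gave 4 of 20 called higher and 1 lower, with a median of -0.11 with TMM and 0.61 with pan-T scaling. Of these Cxcl9 and Cxcl10 encode chemokines made by macrophages and stroma too. Cxcl10 had 78.8, 94.3 and 57.1 CPM in tumor, against 1.58, 0.448 and 1.17 CPM in spleen (log2 fold change 6.17, SE 0.46, edgeR adjusted p = 0.000993), and Cxcl9 had 5.21, 90.04 and 12.9 CPM in tumor, against 0.332, 0.0746 and 0.0779 CPM in spleen, highest in tumor library 2, where the macrophage markers were also highest. Guanylate-binding protein genes were not called in any of 6 (Gbp2 to Gbp7, edgeR adjusted p = 0.08 to 0.785), nor were the antigen-processing genes Tap1, Tap2, Psmb8 and Psmb9. Leaving out any 1 spleen library left 2 of the 20 called higher.

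Genes of protein folding and of the amino acid response rose in 10 of 14 members tested of 15, with none lower and a median of 1.01. Hspa5, encoding the chaperone BiP, had 1132, 1083 and 1349 CPM in tumor, against 462, 411 and 437 CPM in spleen (log2 fold change 1.44, SE 0.17, edgeR adjusted p = 0.00251). Atf4, the factor of the integrated stress response, had 387, 332 and 399.6 CPM in tumor, against 136, 152 and 133 CPM in spleen (log2 fold change 1.41, SE 0.14, edgeR adjusted p = 0.00185), and Asns, its target asparagine synthetase, had 24.96, 42.2 and 45.5 CPM in tumor, against 6.15, 3.58 and 5.38 CPM in spleen (log2 fold change 2.90, SE 0.33, edgeR adjusted p = 0.00227). The tumor libraries lay close together in Atf4. Ddit3, encoding CHOP, was not called (log2 fold change 0.26, SE 0.15, edgeR adjusted p = 0.211). Tumor library 1, the highest tumor library for most T cell genes, was highest in 1 of these 14. On the scale of 15 libraries Hspa5 had 1091 to 1355 CPM in tumor, against 1348 to 1435 in lung. Lung reached the upper end of tumor for this gene, whereas the summed list was apart, at 4078 to 5034 CPM in tumor, 1855 to 2124 in lymph node, 3498 to 3712 in lung, 1735 to 1893 in blood and 1985 to 2121 in spleen. Of the 14, 8 (57.1%) had all tumor libraries above all 12 other KEP libraries, against 19.9% of all genes tested. Leaving out any 1 spleen library left 6 or 7 members called higher.

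Cholesterol and lipid genes rose in 11 of 20 members, with none lower and a median of 0.90. Insig1, the sterol sensor, had 169, 141 and 107 CPM in tumor, against 30.7, 35.7 and 38.4 CPM in spleen (log2 fold change 1.99, SE 0.20, edgeR adjusted p = 0.00185), and Idi1, an enzyme of the mevalonate pathway, had 58.5, 38.2 and 54.03 CPM in tumor, against 16.7, 16.5 and 15.7 CPM in spleen (log2 fold change 1.62, SE 0.19, edgeR adjusted p = 0.00231). Hmgcs1, which makes its first committed intermediate, had 72.7, 80.1 and 79.4 CPM in tumor, against 42.9, 46.1 and 39.5 CPM in spleen (log2 fold change 0.85, SE 0.11, edgeR adjusted p = 0.00307), a smaller step with close values. In all 3 the groups were apart. Fabp5, a fatty acid binding protein, had 70.5, 64.3 and 120.3 CPM in tumor, against 12.1, 8.21 and 11.9 CPM in spleen (log2 fold change 2.98, SE 0.31, edgeR adjusted p = 0.00194). Srebf2 and Fasn were not called, with edgeR adjusted p of 0.918 and 0.775. Genes of oxidative phosphorylation hardly moved, with 4 of 20 called higher, none lower and a median of 0.20, which is 1.14 with pan-T scaling against 0.96 over all genes. The 4 calls were small, such as Cox5a, a subunit of cytochrome oxidase, with 88.6, 109 and 102 CPM in tumor, against 66.3, 68.04 and 74.4 CPM in spleen (log2 fold change 0.52, SE 0.12, edgeR adjusted p = 0.0159). None was called without spleen library 2 or 3 and 1 without spleen library 1, when Cox5a was at an adjusted p of 0.0513 to 0.0754, and 9 were called without tumor library 1 and 2 with the title date as a block.

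Cell cycle genes were called higher in 14 of 30 members, with none lower and a median of 1.45, but the spleen libraries differed. Cdk1, the mitotic kinase, had 32.97, 45.1 and 61.9 CPM in tumor, against 13.5, 4.25 and 4.75 CPM in spleen (log2 fold change 2.64, SE 0.52, edgeR adjusted p = 0.0095). Spleen library 1 stood above the other spleen libraries and below every tumor library. Mki67, the common proliferation marker, had 198, 125 and 138 CPM in tumor, against 165, 72.4 and 65.8 CPM in spleen and was not called (log2 fold change 0.60, SE 0.40, edgeR adjusted p = 0.249, 0.0473 with the title date as a block). Replication genes Mcm2 to Mcm7 were not called in any of 6, with edgeR adjusted p of 0.0892 to 0.777. Mcm6, the one with the smallest p, was called higher with the title date as a block (0.0432), with pan-T scaling (0.0319) and by DESeq2 (0.0341). Only 1 of the 30 was called without spleen library 2 and 2 without spleen library 3, against 21 without spleen library 1, 5 without tumor library 2 and 8 without tumor library 3. With pan-T scaling 23 were called higher, and DESeq2 called 23. On the scale of 15 libraries the list summed to 1486 to 1950 CPM in tumor and 822 to 1392 in spleen. It summed to 827 to 2180 CPM in lymph node, 991 to 2811 in lung and 833 to 1167 in blood. Library 1 was the highest in every tissue, and in lymph node and lung it was above every tumor library. All tumor libraries were above all 12 other KEP libraries in 0 of the 30 genes, against 19.9% of all genes tested. Several inhibitors of the cell cycle rose as well. Cdkn1a, encoding p21, had 366, 184 and 211 CPM in tumor, against 5.32, 3.06 and 4.36 CPM in spleen (log2 fold change 5.90, SE 0.39, edgeR adjusted p = 0.000979). Cdkn2a, the locus of p16 and p19ARF, had 48.1, 90.6 and 112 CPM in tumor, against 1.08, 0.746 and 1.17 CPM in spleen (log2 fold change 6.37, SE 0.42, edgeR adjusted p = 0.000979), and it was lowest in tumor library 1. Trp53, the gene deleted in the epithelium of these mice, had 158, 83.7 and 55.6 CPM in tumor, against 178, 166 and 173 CPM in spleen, with every tumor library below every spleen library (log2 fold change -0.80, SE 0.37, edgeR adjusted p = 0.118), and was called lower without tumor library 1 (adjusted p = 0.00571). Cdh1, the other deleted gene, had 6.11, 9.41 and 231 CPM in tumor, against 1.08, 0.746 and 0.701 CPM in spleen, highest in the tumor library with the most epithelial and milk transcripts (log2 fold change 6.59, SE 1.74, edgeR adjusted p = 0.0241). Neither checks the labels, since Cre acts in keratin 14 epithelium and not in T cells. Cdh1 was not called with any 1 spleen library left out (edgeR adjusted p = 0.0798 to 0.0878). Of 18 genes of p53, its targets and inhibitors of cyclin-dependent kinases 7 were called higher and 3 lower, with a median of -0.02 with TMM and 0.88 with pan-T scaling, and the number called lower was 1 with any 1 spleen library left out and 8 without tumor library 1.

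Among S100, annexin and cytoskeletal genes of activated T cells 7 of 16 were called higher and 1 lower, with a median of 0.14. Anxa2, a membrane-binding annexin also abundant in stroma, had 309, 666 and 627 CPM in tumor, against 73.8, 77.96 and 67.3 CPM in spleen (log2 fold change 2.87, SE 0.32, edgeR adjusted p = 0.00227), and Lmna, encoding lamin A, had 392, 417 and 944 CPM in tumor, against 89.4, 78.2 and 93.6 CPM in spleen (log2 fold change 2.75, SE 0.39, edgeR adjusted p = 0.00368). Neither was highest in tumor library 1, and none of the 7 called genes was. S100a4, a marker of memory T cells, was not called (log2 fold change -0.44, SE 0.41, edgeR adjusted p = 0.399). Cytokines of conventional T cells were at low levels: 9 of 15 passed the filter, 1 of them called higher and 2 lower. Il4, the cytokine of type 2 T cells, had 0, 0.436 and 0.0986 CPM in tumor, against 7.06, 4.103 and 2.88 CPM in spleen (log2 fold change -4.58, SE 0.87, edgeR adjusted p = 0.00842). Csf2, encoding GM-CSF, had 8.52, 8.46 and 4.83 CPM in tumor, against 0.831, 0.671 and 0.701 CPM in spleen (log2 fold change 3.29, SE 0.38, edgeR adjusted p = 0.00227). Ifng was not called, with 5.81, 16.5 and 0.592 CPM in tumor, against 4.24, 8.803 and 3.27 CPM in spleen (log2 fold change 0.49, SE 1.01, edgeR adjusted p = 0.709). Il17a did not pass the filter and had 36 counts over the tumor libraries and 0 over the spleen libraries.

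Over all genes, the 12 higher and the 12 lower genes with the smallest p were singled out, among those changed at least 2-fold with no overlap and a mean of at least 5 CPM in the higher tissue. Fosl2, encoding the AP-1 factor FRA-2 (chromosome 5, 32136472 to 32157831, plus strand), led the higher ones with 1879, 1499 and 1642 CPM in tumor, against 24.5, 25.6 and 24.4 CPM in spleen (log2 fold change 6.07, SE 0.21, edgeR adjusted p = 0.000721). On the scale of 15 libraries it had 1509.9 to 1898 CPM in tumor, against 1537 to 1850.0 in lung, an overlap. The same held for Dusp1, a phosphatase of MAP kinases that overlaps Ergic1 and is therefore uncertain, with 781 to 1054 CPM in tumor, against 721 to 863 CPM in lung. Rgs16 and Rgs2, regulators of G protein signaling, had 488, 398 and 307 CPM in tumor, against 22.4, 19.2 and 21.8 CPM in spleen for Rgs16 and 277, 284 and 337 CPM in tumor, against 14.04, 20.2 and 12.4 CPM in spleen for Rgs2. Several of the 12 are products of stroma or epithelium in other settings. Cxcl1, a neutrophil-attracting chemokine, had 5917 counts over the tumor libraries and 1 over the spleen libraries, a ratio of 7133 with an exact 95% counting interval of 1280 to 281787. Mmp3, a matrix protease, had 6198 counts over the tumor libraries and 1 over the spleen libraries, a ratio of 7472 with an interval of 1341 to 295167, and its lung level was 0 to 0.0943 CPM. For both of these genes the spleen libraries held a single count in all. Tubb6, a tubulin, had 91.004, 148 and 179 CPM in tumor, against 0.831, 0.373 and 0.3895 CPM in spleen (log2 fold change 8.03, SE 0.44, edgeR adjusted p = 0.000931), and Pdgfb, the platelet-derived growth factor, had 35.9, 50.2 and 40.3 CPM in tumor, against 0.831, 0.746 and 1.17 CPM in spleen (log2 fold change 5.51, SE 0.27, edgeR adjusted p = 0.000931). Cebpb (uncertain, since it overlaps Tmem189), Bambi, Adam9 and Gprc5a completed the higher genes, with log2 fold changes of 3.55 ± 0.16, 5.42 ± 0.27, 3.83 ± 0.20 and 6.22 ± 0.34 (SE).

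The lower genes were led by Dtx1 (chromosome 5, 120680202 to 120711927, minus strand), encoding Deltex1, a ubiquitin ligase and Notch target, with 5.11, 2.35 and 3.35 CPM in tumor, against 533, 699 and 502 CPM in spleen (log2 fold change -7.33, SE 0.38, edgeR adjusted p = 0.000931). On the scale of 15 libraries it had 2.37 to 5.16 CPM in tumor, 103 to 126 in lymph node, 97.2 to 177 in lung, 150.2 to 248 in blood and 504 to 703 in spleen. Cxcr5, the receptor of follicular T cells (uncertain, since it overlaps Bcl9l), had 5.01, 3.84 and 3.35 CPM in tumor, against 35.1, 33.2 and 42.8 CPM in spleen (log2 fold change -3.18, SE 0.22, edgeR adjusted p = 0.000983). Aff3, a nuclear factor, had 2.71, 5.23 and 4.14 CPM in tumor, against 66.7, 60.5 and 51.4 CPM in spleen (log2 fold change -3.88, SE 0.27, edgeR adjusted p = 0.000983), and Tnfrsf26, a receptor of the tumor necrosis factor family, had 3.41, 5.06 and 4.54 CPM in tumor, against 41.1, 46.3 and 54.2 CPM in spleen (log2 fold change -3.44, SE 0.21, edgeR adjusted p = 0.000979). All of these were apart by a wide margin. Cpne4, a copine, had 1.704, 1.57 and 1.58 CPM in tumor, against 23.1, 26.2 and 34.04 CPM in spleen (log2 fold change -4.09, SE 0.24, edgeR adjusted p = 0.000931), and on the scale of 15 libraries its level was 1.58 to 1.72 CPM in tumor, 19.7 to 32.4 in lung and 23.2 to 34.2 in spleen. Slc16a5, of the monocarboxylate transporter family, had 3 counts over the tumor libraries and 343 over the spleen libraries, a ratio of 0.0105 with an exact 95% counting interval of 0.00216 to 0.0311. Bcl2, described above, Ehd3, Sbk1, Exoc8, Lpar6 and Tmem186 completed the 12. Lpar6 and Tmem186 overlap Rb1 and Pmm2 and are uncertain. Of the 12, Lpar6, Sbk1, Exoc8 and Tmem186 were not called with pan-T scaling (edgeR adjusted p = 0.1, 0.138, 0.218 and 0.091).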

How the data were processed

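RNA was sequenced as stranded mRNA libraries (single reads), per the labels' protocols. The authors deposited whole-number counts of reads per gene, not normalized; the submitters' processing notes name TopHat2 2.1.0, HTSeq and build GRCm38, and the annotation and strand setting are not given in the sources used here. Overlapping genes and hemoglobin paralogs are therefore uncertain. Genes were placed with GENCODE M21.

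From the counts of the 6 libraries, genes passing edgeR's filterByExpr (minimum count 10) were tested with edgeR 4.0.16 (R 4.3.3), TMM factors, robust quasi-likelihood fits and Benjamini-Hochberg adjustment, called at 0.05. The spread was estimated from these 6 libraries. The SE of a log2 fold change is its absolute value divided by the square root of the quasi-likelihood F statistic. The fit was also run on simulated counts with 200 of 12927 genes changed and the same spread in both groups. In these data tumor varied more than spleen and 46.8% of genes were called, so that run cannot vouch for the fit here. The test set the difference between tumor and spleen against the spread between libraries of a group, without pairing. Each gene had 1 estimate of spread shared by both groups, although the biological coefficient of variation was 0.451 within tumor and 0.110 within spleen. CPM over all 15 KEP libraries was computed separately for values of other tissues. Where a group had 1 to 3 counts, the ratio of summed counts and its exact 95% interval are given.

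The members and the gene lists were chosen with earlier results of these data known. The rule for named genes took the 12 genes of smallest p in each direction (changed at least 2-fold, mean at least 5 CPM, no overlap, markers of other cells left out), at most 5 called members of each list by p, the deleted genes Trp53 and Cdh1, and Cd3e, Cd4, Cd8a and 4 Treg genes (Ctla4, Foxp3, Ikzf2, Il2ra). Other genes in the text were chosen after their values were seen. Tumor and spleen libraries of 1 number share a title date, which was taken as the pairing; deviations of the pairs from their group means had correlations of -0.04, -0.03 and -0.002. Alternatives were RLE and upper-quartile factors, scaling to pan-T genes, other filters, more libraries, the date as a block, DESeq2 1.42.0, limma 3.58.1 (voom, with and without library weights) and each library left out. Wild-type libraries entered the alternative over all 31 libraries alone. Some members of the lists are counted but not reported here by name.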

Additional observations from a re-analysis of the deposited data

How the results depend on the processing

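No named gene changed its sign while called under any alternative run. Scaling to pan-T genes gave 3775 called genes and 162 called lower, by construction set to T cell RNA. A spread shared over all 31 libraries gave 9356 called genes, 5413 higher and 3943 lower; the cause was not tested. With 1 library left out, 3349 to 7984 genes were called, 2225 to 4560 higher and 1124 to 3424 lower; the lowest counts came without spleen library 2 and the highest without tumor library 1. The other settings, among them RLE and upper-quartile factors, no filter, a minimum count of 50, 15 KEP libraries, DESeq2 and limma-voom, kept the counts within 1.5 times the main ones. With the title date as a replicate block 5090 genes passed (3058 higher, 2032 lower), and of 171 named genes tested 12 lost their call, in the text Lag3, Ebf1, Hba-a1 and Mmp9. Of the same 171 genes 17 lost their call with pan-T scaling, 16 with limma-voom and 33 without spleen library 2. With CPM on the library total, the tumor means of several summed lists moved by less than 1 tumor SD. These were the pan-T, macrophage, dendritic cell, B cell, epithelial, stromal and milk and fat lists. That check could hardly fail, since the SD was large, at 1380 CPM beside a mean of 996 CPM for the epithelial list. Spleen sums were not compared in this way. Genes under the filter on low counts were not tested.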

Other observations

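Most B cell genes tested were lower in tumor. Cd79a, a chain of the B cell receptor, had 1.303, 0.959 and 0.986 CPM in tumor, against 18.8, 3.13 and 5.998 CPM in spleen (log2 fold change -3.09, SE 0.74, edgeR adjusted p = 0.0174), and Ms4a1, encoding CD20, had 0, 0.436 and 0.0986 CPM in tumor, against 9.14, 1.72 and 3.04 CPM in spleen (log2 fold change -4.56, SE 1.08, edgeR adjusted p = 0.0169). In both, spleen library 1 stood well above the other spleen libraries. Cd79a was not called without tumor library 2 (edgeR adjusted p = 0.0589), with pan-T scaling (0.0564) or with limma-voom (0.0769), nor Ms4a1 without spleen library 1 (0.0559). Ebf1, a B cell factor that stroma and fat also express, was the exception, with 6.01, 17.7 and 10.3 CPM in tumor, against 3.16, 0.746 and 2.41 CPM in spleen (log2 fold change 2.43, SE 0.65, edgeR adjusted p = 0.0246, 0.0587 with the title date as a block, 0.0502 to 0.0773 with any 1 spleen library or tumor library 2 left out). Klrb1c, encoding NK1.1 in some strains and a marker of NK and NKT cells, had 0.601, 1.57 and 0.789 CPM in tumor, against 28.2, 63.1 and 36.3 CPM in spleen (log2 fold change -5.40, SE 0.50, edgeR adjusted p = 0.00157). Every tumor library was below every spleen library, and other genes of that list, such as Nkg7, were not called (log2 fold change -0.42, SE 0.74, edgeR adjusted p = 0.659).

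Milk protein genes were high in a single tumor library. Csn1s1, a casein, had 10.9, 1.05 and 2026 CPM in tumor, against 0.0831, 0.373 and 0.467 CPM in spleen, so that tumor library 3 stood far above the other two (log2 fold change 11.04, SE 3.33, edgeR adjusted p = 0.0361). With limma-voom its log2 fold change was 6.47 and it was not called (adjusted p = 0.554). The caseins Csn2 and Csn3, which did not pass the filter, held 8007 and 22206 counts over the tumor libraries, against 10 and 8 over the spleen libraries. The keratin gene Krt8 was likewise highest in tumor library 3, with 50.5, 63.5 and 762 CPM in tumor, against 0.0831, 0.0746 and 0.156 CPM in spleen. Collagen Col1a2 had 1512, 2859 and 2675 CPM in tumor, against 0.415, 0.149 and 0.779 CPM in spleen, with tumor library 1 the lowest of the tumor libraries (log2 fold change 12.33, SE 0.67, edgeR adjusted p = 0.000931). The hemoglobin gene Hba-a1, uncertain because of its paralogs, was lower in tumor, with 11.02, 24.8 and 23.9 CPM in tumor, against 102, 247 and 29.1 CPM in spleen (log2 fold change -2.66, SE 0.78, edgeR adjusted p = 0.0335, 0.0513 with the title date as a block, 0.183 with pan-T scaling), and spleen library 2 was the highest. Mmp9, a protease of neutrophils and macrophages, had 114, 2348 and 30.96 CPM in tumor, against 4.57, 9.77 and 15.7 CPM in spleen and was highest in tumor library 2, as were the macrophage and neutrophil markers (log2 fold change 6.37, SE 1.82, edgeR adjusted p = 0.0305, 0.0775 with the title date as a block). With any 1 spleen library left out Mmp9 was not called (edgeR adjusted p = 0.0879 to 0.104), nor was Csn1s1 (0.111 to 0.115), and Hba-a1 was called only without spleen library 3 (0.0656 to 0.0917 without any other library).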
